A study of Mus musculus with 13 samples.

Results

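The annexins are a family of proteins that bind phospholipid membranes when calcium rises. Their levels were followed in RNA-seq of mouse small intestine with and without Apc, and the family was defined here as the 10 listed annexin symbols Anxa1, Anxa2, Anxa3, Anxa4, Anxa5, Anxa6, Anxa7, Anxa8, Anxa11 and Anxa13, out of 24054 genes in the count tables. All 10 passed the filter on low counts in each of the 3 fits used here. Anxa9 and Anxa10, which were not among the 10, reached at most 2.96 and 2.74 CPM (counts scaled to library size) in any library. The series asked how loss of Apc, which leaves Wnt signalling switched on, acts in different cells and settings.

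The 13 libraries formed 6 groups from adult mice, and all of them, WT included, received 2 doses of 1 mg tamoxifen. Sec-Cre Apc-null organoids carried Atoh1CreERT2;Apcfl/fl;Rosa26tdTomato, so that Cre was driven from Atoh1, a gene of the secretory lineage, and they gave 2 libraries. ISC-Cre Apc-null organoids carried Lgr5eGFP-CreERT2;Apcfl/fl;Rosa26tdTomato, with Cre driven from the crypt-base stem cell gene Lgr5 (2 libraries). WT organoids, whose genotype label gives no allele, gave 2 libraries. All organoids were whole cultures of crypts given as ileal in the treatment label, with a time label of 10 days, and the labels leave unclear whether these count from tamoxifen or from plating. Sorted intestinal stem cells (ISCs) came from 3 further groups. ISC-Cre Apc-null duodenal ISCs, of the same genotype as the ISC-Cre organoids, were taken at 14 days (3 libraries). Sec-Cre Apc-null ileal ISCs carried Atoh1CreERT2;Apcfl/fl;Lgr5DTR-GFP;Rosa26tdTomato and were taken at 21 days (2 libraries). WT ileal ISCs at 21 days carried Apcfl/fl;Lgr5DTR-GFP;Rosa26tdTomato without a Cre (2 libraries), so floxed Apc was shared by every ISC group. The extraction text common to all samples names the duodenum alone, whereas the cell type labels give ileum or duodenum. The region used here follows those cell type labels. No label says that the libraries of a group came from separate animals or cultures, so the p-values measure the spread between these libraries, which may be technical.

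Annexins share a conserved core that carries the calcium-dependent binding to phosphatidylserine and other acidic lipids, and each has its own amino-terminal tail. Known roles include patching torn plasma membrane, vesicle traffic and exocytosis, and, once outside the cell, binding of plasminogen activators or of receptors. Several annexins work with small S100 proteins, which bind their tails. In intestinal epithelium the family is known for apical transport in enterocytes, through annexin A13, and for wound repair, through annexin A1.

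On GRCm38 (GENCODE vM21) the gene of annexin A1 lies at chr19:20373428-20390944 on the minus strand, Anxa2 at chr9:69453620-69491795 (plus), Anxa3 at chr5:96793339-96845966 (plus) and Anxa4 at chr6:86736840-86793584 (minus). Anxa5 lies at chr3:36448923-36475894 (minus), Anxa6 at chr11:54979108-55033445 (minus) and Anxa13, annotated there as a processed transcript, at chr15:58341471-58389244 (minus). Chromosome 14 carries 3 members, Anxa7 at chr14:20455260-20480133 (minus), Anxa11 at chr14:25842156-25886804 (plus) and Anxa8 at chr14:34085981-34100571 (plus). Promoter windows of 300 bases (250 before and 50 after the start of transcription) were taken from RefSeq on GRCm38.p6, which held 7 of the 10 members in 9 windows. Anxa3, Anxa6 and Anxa13 had no entry. The windows of Anxa1 and Anxa8 are shown because both genes were low or without counts in WT libraries and detected in all Apc-null organoids. That of Anxa2 is shown because its level stayed close to that of WT in organoids. The Anxa1 window lies at chr19:20390622-20390921 on the minus strand, that of Anxa8 at chr14:34085729-34086028 on the plus strand, and that of Anxa2 at chr9:69453433-69453732 on the plus strand. Each is written 5′ to 3′ on the strand of the gene. Capitals mark matches to a TEAD motif (GGAATG on either strand, here its reverse complement), an AP-1 motif (TGANTCA on either strand) or a TATA box (TATAAA on either strand).
Anxa1: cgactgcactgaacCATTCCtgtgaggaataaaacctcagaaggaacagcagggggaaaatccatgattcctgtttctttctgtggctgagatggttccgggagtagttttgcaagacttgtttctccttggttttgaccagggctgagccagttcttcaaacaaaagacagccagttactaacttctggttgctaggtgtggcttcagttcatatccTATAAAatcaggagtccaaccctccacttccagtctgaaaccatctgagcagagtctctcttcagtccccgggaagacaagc
Anxa8: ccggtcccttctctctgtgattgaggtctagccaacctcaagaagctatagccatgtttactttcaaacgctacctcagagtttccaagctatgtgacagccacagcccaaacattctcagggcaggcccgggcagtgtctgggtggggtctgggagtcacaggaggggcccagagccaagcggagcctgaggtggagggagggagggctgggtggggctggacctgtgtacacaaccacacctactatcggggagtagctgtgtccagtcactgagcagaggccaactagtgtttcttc
Anxa2: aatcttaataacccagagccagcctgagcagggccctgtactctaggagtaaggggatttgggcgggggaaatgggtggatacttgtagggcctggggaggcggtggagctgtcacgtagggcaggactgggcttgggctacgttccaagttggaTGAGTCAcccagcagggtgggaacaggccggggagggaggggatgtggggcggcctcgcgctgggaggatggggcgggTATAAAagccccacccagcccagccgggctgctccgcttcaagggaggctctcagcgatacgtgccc
The Anxa1 window held a TEAD match 236 bases and a TATA box 32 bases upstream of the RefSeq start. The Anxa2 window held an AP-1 match 95 bases and a TATA box 17 bases upstream of its RefSeq start. GENCODE places both starts further upstream, at 20390944 and 69453620, so the Anxa1 window lies wholly inside the GENCODE gene. A TEAD match occurred in 14.7% of all 32851 windows of this length, an AP-1 match in 7.81% and a TATA box in 13.6%. The Anxa8 window held none of the 5 motifs searched, which also covered TCF/LEF (ATCAAAG, found in 3.73% of all windows) and HNF4A (CAAAGTCCA, 0.475%), each on either strand. No match overlapped another in the windows shown. Windows differed in base composition: that of Anxa1 had 3 CpG sites, that of Anxa8 5 and that of Anxa2 13, against a median of 7 over all windows.

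Library quality bears on the ISC comparisons. Libraries held 11524335 to 45516228 gene counts, and both extremes were Sec-Cre ileal ISC libraries, replicates 1 and 2. In these, 57.0% and 35.8% of reads were unmapped, against at most 13.9% elsewhere, and Paneth cell markers took 27.9% of the counts of replicate 1. The summed level of 15 enterocyte markers was 55965 and 30976 CPM in Sec-Cre ileal ISCs, against 1919 and 1952 CPM in WT ileal ISCs. That of 12 stem cell markers was 1821 and 2579 CPM against 5852 and 6026 CPM. Of these 12, 4 were lower, 1 was higher and 7 did not pass, where 16.6% of all genes passed. Olfm4 made up 3005 and 3607 CPM of the WT sums, against 302 and 1258 CPM in Sec-Cre ileal ISCs. Sox9 went the other way, at 546 and 285 CPM against 132 and 125 CPM. The stem cell marker sum was also below WT in duodenal ISCs, at 3851, 3935 and 4324 CPM. Axin2, a direct Wnt target, was at 79.0 and 37.8 CPM in Sec-Cre ileal ISCs against 329.8 and 285 CPM in WT ileal ISCs, so the libraries labelled Apc-null in the ileum did not carry the high Axin2 of the Apc-null organoids (782 to 822 CPM) or duodenal ISCs (679 to 770.4 CPM). Apc itself was counted over the whole gene, at 107 and 48.2 CPM in Sec-Cre ileal ISCs against 114 and 124 CPM in WT ileal ISCs, which does not test for a deleted exon. Annexin calls that rest on these libraries are given with and without each. Duodenal libraries came from another gut region, another dissociation enzyme and had 98.5% to 98.9% of their counts on the second strand (48.4% to 51.1% elsewhere), so region, Cre driver, time and preparation cannot be told apart there.

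**Figure D1:**
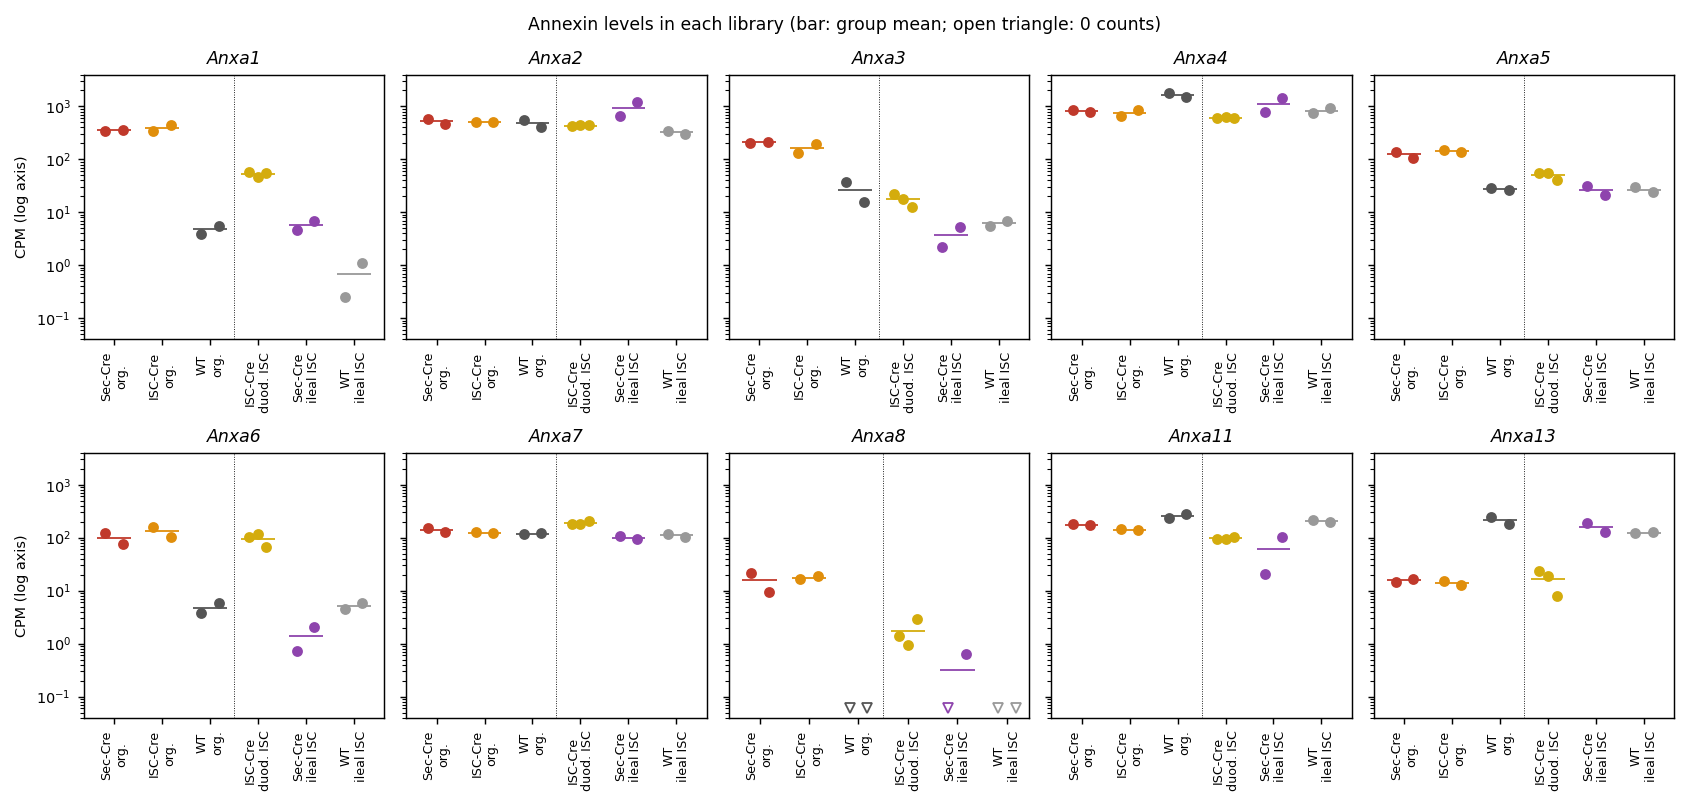
CPM of the 10 annexins in each of the 13 libraries on a log axis, with Apc-null groups left of their WT group within organoids and within ISCs (dotted line between), bars at group means and open triangles for 0 counts. Anxa1, Anxa6 and Anxa8 lie far apart between Apc-null and WT organoids, Anxa13 is displaced the other way, and Anxa2 overlaps between Apc-null and WT organoids.

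Annexin A1 rose in Apc-null organoids of both drivers against WT organoids, and was higher in duodenal ISCs and in the ileal ISCs labelled Sec-Cre than in WT ileal ISCs. It is known as a glucocorticoid-induced protein that is released at mucosal wounds and acts on formyl peptide receptors. Sec-Cre organoids had 349 and 358 CPM of Anxa1, against 344 and 442 CPM in ISC-Cre organoids and 3.87 and 5.64 CPM in WT organoids. All 4 Apc-null libraries were more than an order of magnitude above both WT libraries. The log2 difference from WT was 6.14 ± 0.23 (SE) in Sec-Cre organoids, with an adjusted p of 2.76e-05 in the edgeR quasi-likelihood test. In ISC-Cre organoids it was 6.31 ± 0.23 (adjusted p = 2.15e-05, same edgeR test). Both comparisons use the same WT libraries, and this holds for every pair of organoid values given side by side here. In bulk RNA, more cells that express a gene and more RNA per cell cannot be told apart.

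In ISCs Anxa1 stood at 57.7, 47.2 and 54.6 CPM in ISC-Cre duodenal ISCs, at 4.68 and 6.85 CPM in Sec-Cre ileal ISCs, and at 0.248 and 1.11 CPM in WT ileal ISCs. The 3 groups did not overlap, and the highest ISC library lay below every Apc-null organoid library. Duodenal ISCs were higher than WT ileal ISCs by 6.24 ± 0.63 on the log2 scale (edgeR adjusted p = 0.000656) and higher than Sec-Cre ileal ISCs by 3.17 ± 0.53 (edgeR adjusted p = 0.00231). With Sec-Cre replicate 1 or 2 left out, the second difference was 2.98 or 3.50 and passed. The Sec-Cre ileal ISCs exceeded WT ileal ISCs by 3.06 ± 0.59 (edgeR adjusted p = 0.0118), which rested on 292 counts in the Sec-Cre libraries against 26 in the WT libraries. It stood at 3.24 with Sec-Cre replicate 1 left out and at 2.73 with replicate 2 left out, both still past the threshold of 0.05. Without WT replicate 1 it was 2.39 and no longer passed, nor did it pass when only the 2 compared groups were fitted (edgeR adjusted p = 0.107, with 3.41e-06 to 0.107 over the 15 alternatives).

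Among the genes of annexin A1 signalling, the receptors Fpr1, Fpr2 and Fpr3 were at or near 0 in every library, with at most 0.0800 CPM, and did not enter the tests. Of 4 genes that did, none rose and 1 fell in Sec-Cre against WT organoids, and 1 rose and 1 fell in ISC-Cre against WT organoids, where 33% and 37.8% of all genes passed. The gene that fell in both was Pla2g4a, the cytosolic phospholipase A2 that annexin A1 is known to inhibit. It had 11.7 and 34.3 CPM in Sec-Cre organoids, 10.7 and 11.5 CPM in ISC-Cre organoids, and 52.2 and 96.9 CPM in WT organoids. The log2 differences were -1.75 ± 0.48 (edgeR adjusted p = 0.0288) and -2.78 ± 0.51 (edgeR adjusted p = 0.00471). Adam10, a membrane protease, rose in ISC-Cre organoids by 0.48 ± 0.15 (edgeR adjusted p = 0.0393).

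Annexin A2 was among the 3 most abundant members per length in every group and did not pass the test in organoids. With S100a10 it forms a complex at the plasma membrane that is known to hold plasminogen and its activator Plat. Anxa2 was at 581 and 473 CPM in Sec-Cre organoids, 517 and 505 CPM in ISC-Cre organoids, and 545 and 413 CPM in WT organoids, with overlapping groups. The log2 differences from WT were 0.08 ± 0.17 and 0.06 ± 0.17. S100a10 likewise overlapped, at 238 and 241 CPM, 219 and 175 CPM, and 247 and 184 CPM in the same 3 groups.

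In ISCs both partners were higher in the libraries labelled Sec-Cre than in WT. Anxa2 was at 670.1 and 1196 CPM in Sec-Cre ileal ISCs and at 339.9 and 308 CPM in WT ileal ISCs, a log2 difference of 1.52 ± 0.36 (edgeR adjusted p = 0.0257). S100a10 was at 592 and 411 CPM in Sec-Cre ileal ISCs and at 192 and 182 CPM in WT ileal ISCs, a log2 difference of 1.43 ± 0.30 (edgeR adjusted p = 0.0163). Between the Sec-Cre libraries, replicate 2 was the higher one for Anxa2 and replicate 1 for S100a10. On the scaled library sizes used here, both libraries were above WT for both genes. For Anxa2 in replicate 1 this rested on a scaling factor (TMM) of 0.352. On plain library sizes its 2722 of 11524335 counts lay below WT, at 5488 of 15573041 and 6076 of 18609373. The 2 Sec-Cre libraries are also those with high enterocyte markers, whose part in these differences was not tested. Without Sec-Cre replicate 1 the differences were 1.86 for Anxa2 and 1.11 for S100a10, and without replicate 2 they were 1.05 and 1.67, all past the threshold. The Anxa2 call was lost without WT replicate 1 (1.59), WT replicate 2 (1.46), and duodenal replicate 1 or 2 (1.53 each), and the S100a10 call without WT replicate 1 (1.46) or 2 (1.39). S100a10 was at 116, 124 and 115 CPM in duodenal ISCs, which lay under both WT libraries without passing the test (-0.66 ± 0.26, edgeR adjusted p = 0.118). In duodenal ISCs Anxa2 was at 423, 447 and 438 CPM, below Sec-Cre ileal ISCs by 1.09 on the log2 scale (-1.09 ± 0.32, edgeR adjusted p = 0.0251) and not shown to differ from WT ileal ISCs (0.43 ± 0.33, edgeR adjusted p = 0.391). The difference of Anxa2 between duodenal and Sec-Cre ileal ISCs did not pass without Sec-Cre replicate 2 (-0.62), duodenal replicate 1 (-1.07) or 2 (-1.11), or either WT library (-1.07 each).

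The plasminogen genes around annexin A2 changed although the complex itself did not pass the test. Of 6 measured genes of plasminogen activation, 4 rose and 1 fell in Sec-Cre against WT organoids, and the same counts held for ISC-Cre against WT organoids. Their median log2 difference was 2.36 in Sec-Cre and 2.47 in ISC-Cre organoids, beside medians of 0.05 and 0.03 over all genes, of which 33% and 37.8% passed. Plat, tissue plasminogen activator, was at 84.9 and 59.9 CPM in Sec-Cre organoids, 120.0 and 86.1 CPM in ISC-Cre organoids, and 7.45 and 10.0 CPM in WT organoids. Plau, urokinase, was at 7.81 and 7.42 CPM, 14.3 and 11.8 CPM, and 0 and 0.0889 CPM in the same 3 groups. Plat rose by 2.99 ± 0.27 in Sec-Cre (edgeR adjusted p = 0.000285) and by 3.52 ± 0.28 in ISC-Cre organoids (edgeR adjusted p = 0.000132), whereas Plgrkt, a plasminogen receptor, fell (-1.96 ± 0.24 and -1.93 ± 0.24, edgeR adjusted p = 0.000968 and 0.000873). In duodenal ISCs Plat reached 235, 282 and 275 CPM, against 0 and 1.42 CPM in WT ileal ISCs. Of the 6 genes it alone passed there.

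Annexins A5 and A6 belong to the members known for binding phosphatidylserine and for sealing membrane wounds, and both rose in Apc-null organoids. Anxa5, whose protein is the common probe for dying cells, was at 141 and 108 CPM in Sec-Cre organoids, 149 and 137 CPM in ISC-Cre organoids, and 28.3 and 26.8 CPM in WT organoids. Anxa6, the largest annexin with a duplicated core, was at 121 and 75.8 CPM, 163 and 104 CPM, and 3.73 and 5.86 CPM in the same 3 groups. All Apc-null libraries were above both WT libraries for the 2 genes. The rise of Anxa5 was 2.12 ± 0.17 in Sec-Cre (edgeR adjusted p = 0.000151) and 2.34 ± 0.17 in ISC-Cre organoids (edgeR adjusted p = 9.04e-05). That of Anxa6 was 4.28 ± 0.37 (edgeR adjusted p = 0.000218) and 4.74 ± 0.37 (edgeR adjusted p = 0.000132). Anxa4, a further membrane-binding member and the most abundant one per length in organoids, went the other way. It was at 874 and 775 CPM in Sec-Cre organoids, 666 and 845 CPM in ISC-Cre organoids, and 1758 and 1530.1 CPM in WT organoids. The log2 differences were -1.05 ± 0.16 (edgeR adjusted p = 0.00232) and -1.16 ± 0.16 (edgeR adjusted p = 0.00129).

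The 2 phosphatidylserine binders differed in ISCs. Anxa6 was at 102, 115 and 66.6 CPM in duodenal ISCs, at 0.739 and 2.06 CPM in Sec-Cre ileal ISCs, and at 4.52 and 5.82 CPM in WT ileal ISCs. Duodenal ISCs thus reached the range of Apc-null organoids, and Sec-Cre ileal ISCs lay below WT. The difference between duodenal and WT ileal ISCs was 4.20 ± 0.46 (edgeR adjusted p = 0.000861) and that between duodenal and Sec-Cre ileal ISCs was 5.86 ± 0.52 (edgeR adjusted p = 0.000178). The second was 5.56 with Sec-Cre replicate 1 left out and 6.99 with replicate 2 left out, both past the threshold. The value of 6.99 rested on 3 Anxa6 counts in Sec-Cre replicate 1. Sec-Cre ileal ISCs fell below WT ileal ISCs by 1.67 (-1.67 ± 0.47, edgeR adjusted p = 0.0435), on 85 counts against 188. Without Sec-Cre replicate 1 that difference was -1.36 and did not pass. Without replicate 2 it was -2.80 and did, again on only 3 counts on the Sec-Cre side. It also failed to pass without WT replicate 1 (-1.86) or 2 (-1.48), or duodenal replicate 1 or 2 (-1.69 each).

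Anxa5 was at 54.2, 55.7 and 41.1 CPM in duodenal ISCs, 31.8 and 21.6 CPM in Sec-Cre ileal ISCs, and 29.6 and 24.1 CPM in WT ileal ISCs, so the last pair overlapped. Its excess in duodenal over Sec-Cre ileal ISCs was 0.93 ± 0.32 (edgeR adjusted p = 0.0440), and was lost without Sec-Cre replicate 2 (0.67), duodenal replicate 1 (0.87) or 2 (0.85), or either WT library (0.95 each). Against WT ileal ISCs it was 0.91 ± 0.31 (edgeR adjusted p = 0.0755). Anxa4 did not pass in any of the 3 ISC comparisons. It was at 597, 636 and 592 CPM in duodenal ISCs, 791 and 1466 CPM in Sec-Cre ileal ISCs, and 744 and 927 CPM in WT ileal ISCs, with duodenal libraries below all ileal ones. Without Sec-Cre replicate 1 the difference of Anxa4 between duodenal and Sec-Cre ileal ISCs was -1.24 and passed.

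Genes of membrane repair and of phosphatidylserine exposure were counted beside them. Of 19 measured genes of membrane repair, 5 rose and 3 fell in Sec-Cre against WT organoids and 6 rose and 3 fell in ISC-Cre against WT organoids, with medians of 0.00 and 0.03. Over all genes 33% and 37.8% passed in these comparisons with medians of 0.05 and 0.03, so 8 and 9 of 19 genes is near the share over all genes. Myof, a ferlin of membrane repair, was at 207 and 219 CPM in Sec-Cre organoids, 171 and 247 CPM in ISC-Cre organoids, and 17.6 and 12.6 CPM in WT organoids. Capn2, the calcium-activated protease that cleaves repair proteins, was at 103 and 86.5 CPM, 127 and 108 CPM, and 13.2 and 8.44 CPM. Both rose by more than 3 on the log2 scale in each comparison. Of 9 genes that set the side on which phosphatidylserine is exposed, 3 rose and 2 fell in Sec-Cre organoids and 2 rose and 2 fell in ISC-Cre organoids, again beside 33% and 37.8% of all genes. Atp11a, a flippase that carries phosphatidylserine inwards, rose by 3.16 ± 0.17 and 3.49 ± 0.18 (edgeR adjusted p = 4.46e-05 and 3.03e-05), and the scramblase Ano6 fell (-1.12 and -1.14). In Sec-Cre ileal ISCs, libraries with high enterocyte markers, Atp11a fell by 1.63 and Ano6 rose by 1.12 against WT ileal ISCs. Atp11a stayed past the threshold with Sec-Cre replicate 1 (-1.78) or 2 (-1.49) left out, but not without WT replicate 1 (-1.66) or 2 (-1.61). Ano6 did not pass without Sec-Cre replicate 2 (0.98), WT replicate 1 (1.14) or 2 (1.09), or duodenal replicate 1 or 2 (1.12 each).

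The members known from vesicle traffic split. Anxa13, an annexin of the gut known for apical delivery in enterocytes, was lower in both kinds of Apc-null organoid. It was at 14.6 and 16.7 CPM in Sec-Cre organoids, 14.95 and 12.6 CPM in ISC-Cre organoids, and 245 and 185 CPM in WT organoids. All 4 Apc-null libraries were more than an order of magnitude below both WT libraries. The log2 differences were -3.83 ± 0.20 (edgeR adjusted p = 4.17e-05) and -4.00 ± 0.21 (edgeR adjusted p = 3.03e-05). Most markers of enterocyte, goblet and enteroendocrine cells were lower in the same libraries, where 16.3% and 18.5% of all genes fell. Of 15 enterocyte markers all fell in each comparison, of 9 goblet markers 8 fell in Sec-Cre and 7 in ISC-Cre organoids, and of 10 enteroendocrine markers 9 and 8 fell. Of 8 Paneth markers, 6 fell and 1 rose in Sec-Cre and 3 fell and 1 rose in ISC-Cre organoids. Of 7 tuft markers, 5 fell and 1 rose in Sec-Cre and 5 fell and 2 rose in ISC-Cre organoids. The summed level of the enterocyte markers was 532 and 589.8 CPM in Sec-Cre organoids, 439.9 and 433 CPM in ISC-Cre organoids, and 6053 and 4452 CPM in WT organoids. Between 1 and 4 of them were at 0 in an Apc-null library, among them Apoa4, Fabp1 and Slc15a1, and none in WT. Goblet markers summed to 491 and 545 CPM in Sec-Cre organoids, 749.9 and 521 CPM in ISC-Cre organoids, and 4608 and 4967 CPM in WT organoids. The part of these cell types in the falls of Anxa13, Anxa4 and Anxa11 was not tested.

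In ISCs Anxa13 was at 23.1, 18.7 and 7.99 CPM in duodenal ISCs, 187 and 128 CPM in Sec-Cre ileal ISCs, and 121 and 126 CPM in WT ileal ISCs. Duodenal ISCs were below WT ileal ISCs by 2.89 on the log2 scale (-2.89 ± 0.43, edgeR adjusted p = 0.00281) and below Sec-Cre ileal ISCs (-3.24 ± 0.43, edgeR adjusted p = 0.000870). The second difference was -2.91 with Sec-Cre replicate 1 left out and -3.49 with replicate 2 left out, both past the threshold. The summed enterocyte markers were 3041, 1883 and 1619 CPM in duodenal ISCs and 1919 and 1952 CPM in WT ileal ISCs, so that they overlapped. Against WT ileal ISCs, 4 enterocyte markers were higher and 1 lower in duodenal ISCs, and 6 of 9 goblet and 9 of 10 enteroendocrine markers were lower. None of 9 Paneth and 8 tuft markers passed there, where 19.1% of all genes passed. Against Sec-Cre ileal ISCs, all 15 enterocyte, 7 goblet and 8 enteroendocrine markers were lower in duodenal ISCs. So were 6 Paneth and 3 tuft markers, where 40.8% of all genes passed. The part of these cell types in the differences of Anxa13 was not tested. Anxa13 in Sec-Cre ileal ISCs differed from WT ileal ISCs by 0.35 ± 0.46 (edgeR adjusted p = 0.633).

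Anxa11, known for tethering RNA granules to lysosomes, was at 179 and 173 CPM in Sec-Cre organoids, 143 and 139 CPM in ISC-Cre organoids, and 236 and 285 CPM in WT organoids. The log2 differences were -0.61 ± 0.13 (edgeR adjusted p = 0.0105) and -0.92 ± 0.13 (edgeR adjusted p = 0.00166), the smallest of the annexin changes that passed in each organoid comparison. The call in Sec-Cre organoids was lost without Sec-Cre replicate 1 (-0.63) or replicate 2 (-0.58). With all 13 libraries in the fit neither organoid comparison passed (-0.56 and -0.89, edgeR adjusted p = 0.501 and 0.235). Over the alternatives the adjusted p ran from 6.87e-05 to 0.501 in Sec-Cre and from 1.81e-09 to 0.235 in ISC-Cre organoids. In addition, 17.2% of its 31-base words occur in other annotated genes on either strand, most of them in Gm2260. Its level is therefore less certain than that of the other members (at most 4.42%). In ISCs it was at 95.4, 95.1 and 101 CPM in duodenal ISCs, 20.2 and 101 CPM in Sec-Cre ileal ISCs, and 217 and 201 CPM in WT ileal ISCs. The Sec-Cre libraries stood far apart, and their difference from WT (-1.77 ± 0.59, edgeR adjusted p = 0.0707) became -1.07 with replicate 1 left out and -3.37 with replicate 2 left out, both past the threshold. Duodenal and Sec-Cre ileal ISCs differed by 0.67 ± 0.53 (edgeR adjusted p = 0.343), and by 2.27, past the threshold, without Sec-Cre replicate 2.

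Anxa7, which is known for fusing secretory granules, ranged between 92.8 CPM in a Sec-Cre ileal ISC library and 211 CPM in a duodenal one. It was at 155 and 127 CPM in Sec-Cre organoids, 125 and 122 CPM in ISC-Cre organoids, and 116 and 120.4 CPM in WT organoids, and did not pass there. Duodenal ISCs, at 179, 178 and 211 CPM, were above Sec-Cre ileal ISCs, at 108 and 92.8 CPM, by 0.91 ± 0.25 (edgeR adjusted p = 0.0191), which did not pass without Sec-Cre replicate 2 (0.81) or duodenal replicate 1 (0.95). Against WT ileal ISCs, at 119 and 103 CPM, their excess was 0.77 ± 0.25 (edgeR adjusted p = 0.0593).

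Anxa3 and Anxa8, the second of which is best known from stratified epithelia, both rose in Apc-null organoids. Anxa3 was at 200.3 and 217 CPM in Sec-Cre organoids, 131 and 192 CPM in ISC-Cre organoids, and 37.1 and 15.9 CPM in WT organoids. The rise was 2.94 ± 0.38 (edgeR adjusted p = 0.00134) and 2.58 ± 0.38 (edgeR adjusted p = 0.00185). Anxa8 was at 21.6 and 9.62 CPM in Sec-Cre organoids and 16.4 and 19.0 CPM in ISC-Cre organoids, and had no count in either WT organoid library. Set against 3 counts over the WT group, it was at least 189-fold higher in Sec-Cre organoids and at least 215-fold higher in ISC-Cre organoids (edgeR adjusted p = 0.000442 and 0.000343). A count of 0 allowed up to 0.211 and 0.133 CPM in these WT libraries, for counting error only.

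In ISCs Anxa3 was at 22.1, 17.9 and 12.8 CPM in duodenal ISCs, 2.22 and 5.35 CPM in Sec-Cre ileal ISCs, and 5.64 and 6.79 CPM in WT ileal ISCs. Duodenal ISCs were above Sec-Cre ileal ISCs by 2.15 ± 0.52 (edgeR adjusted p = 0.0118), a call lost without duodenal replicate 1 (1.97) and kept with Sec-Cre replicate 1 (1.75) or 2 (2.99) left out, while their excess over WT ileal ISCs, 1.50 ± 0.50, did not pass (edgeR adjusted p = 0.0672). Anxa8 was at 1.39, 0.946 and 2.88 CPM in duodenal ISCs, 0 and 0.627 CPM in Sec-Cre ileal ISCs, and without a count in WT ileal ISCs. Duodenal ISCs were at least 19.0-fold higher than WT ileal ISCs (edgeR adjusted p = 0.0262), a call that was lost when any 1 of the duodenal or WT libraries was left out. In Sec-Cre replicate 1 a count of 0 allowed up to 0.739 CPM, more than the level seen in replicate 2, so the depth there cannot tell the 2 libraries apart.

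Over the family, 5 annexins rose and 3 fell in Sec-Cre against WT organoids, and 5 rose and 3 fell in ISC-Cre against WT organoids, the same 8 genes. The background was high: 33% of 14208 genes passed the test in the Sec-Cre comparison (16.7% higher, 16.3% lower) and 37.8% in the ISC-Cre comparison (19.3% higher, 18.5% lower). Levels of 9 members did not overlap between the groups in each comparison, where 71.3% and 68.5% of all genes did not overlap. The median log2 difference of the 10 members was 1.16 in Sec-Cre and 1.20 in ISC-Cre organoids, beside 0.05 and 0.03 over all genes tested. In the plot of organoid differences, the 2 Apc-null groups lie beside each other for every member.

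**Figure D2:**
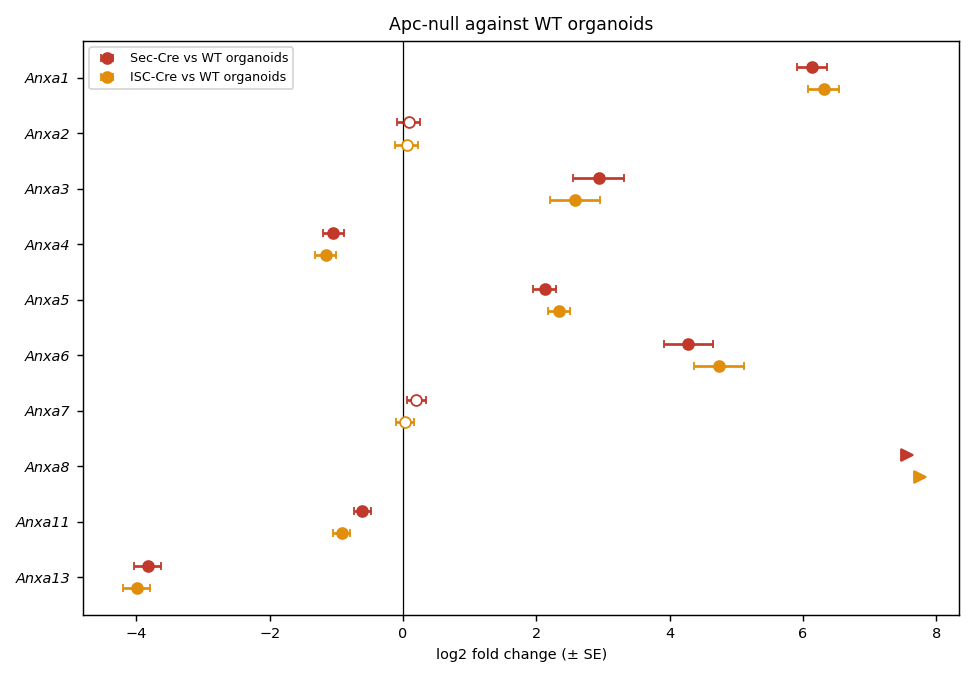
Log2 fold change (± SE) of each annexin in Sec-Cre and in ISC-Cre Apc-null organoids over WT organoids, 2 libraries a group; filled points have an edgeR adjusted p under 0.05, and right-pointing triangles give the log2 lower bound for Anxa8, which had no count in WT. Anxa1 lies above 6 and Anxa13 at -3.83 and -4.00, while Anxa2 and Anxa7 lie near 0 with open points.

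Set against each other directly, the Sec-Cre and ISC-Cre organoids were not told apart by any annexin. None of the 10 passed the edgeR quasi-likelihood test, 1 (Anxa11, 0.31 ± 0.13) had an unadjusted p under 0.05, and DESeq2 also called none. Over all genes the test called 6 of 14208, or 0.0422%, with 719 at an unadjusted p under 0.05. The differences ran between -0.46 ± 0.31 for Anxa6 and 0.35 ± 0.35 for Anxa3. Levels overlapped for 7 members, and for Anxa3, Anxa7 and Anxa11 the Sec-Cre libraries were above the ISC-Cre libraries, where 39.6% of all genes did not overlap. With 2 libraries a group, a p that misses the threshold does not show equal levels.

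Among sorted ISCs, the family was counted in the same way. Against WT ileal ISCs, duodenal ISCs had 3 annexins higher (Anxa1, Anxa6, Anxa8) and 1 lower (Anxa13), and 19.1% of 14577 genes passed (10.2% higher, 8.84% lower). Their levels did not overlap for any of the 10 members, where 61.3% of all genes did not overlap. Sec-Cre ileal ISCs had 2 higher (Anxa1, Anxa2) and 1 lower (Anxa6) than WT ileal ISCs, where 16.6% of genes passed (9.62% higher, 6.96% lower). Levels of 6 members did not overlap there, 3 higher and 3 lower, against 60.2% of all genes. The other members did not pass there, and their differences included -0.65 ± 0.53 for Anxa3, 0.43 ± 0.39 for Anxa4, -0.02 ± 0.34 for Anxa5 and -0.14 ± 0.27 for Anxa7. Leaving out Sec-Cre replicate 1 gave 3 called annexins and leaving out replicate 2 gave 4, whereas 0 passed without WT replicate 1 and 1 (Anxa1) without WT replicate 2. Between duodenal and Sec-Cre ileal ISCs 5 were higher and 2 lower, where 40.8% of genes passed (21% higher, 19.8% lower). Levels of 9 members did not overlap, Anxa11 being the exception, against 62.5% of all genes. The count for duodenal against WT ileal ISCs was 8 when either Sec-Cre library was left out of the fit, with Anxa3 (1.50), Anxa5 (0.92 and 0.91), Anxa7 (0.78) and Anxa11 (-1.10) added, and 3 without any 1 of the duodenal or WT libraries, Anxa8 being lost. For duodenal against Sec-Cre ileal ISCs it was 8 with Sec-Cre replicate 1 left out, 5 with replicate 2 left out, 3 without duodenal replicate 1, and 5 without duodenal replicate 2 or either WT library. The number of all genes called also changed with the library left out, with the ranges given in the last section. The changes in these annexin counts are therefore not a result about the family. These 3 comparisons share groups with each other. Stromal and endothelial markers were higher in duodenal ISCs, at a summed 93.4, 130.2 and 166 CPM against 10.2 and 12.6 CPM in WT ileal ISCs. Of 13 such markers, 6 passed the low-count filter, and of these 3 rose (Cdh5, Acta2 and Pdgfra) and 1 fell. Cdh5 made up 63.4 to 140 CPM of the sum, the endothelial gene Kdr was at most 0.0323 CPM, and the collagen gene Col1a1 reached 19.3 CPM in replicate 2 and at most 0.0968 CPM in the other duodenal libraries. In organoids the sum was 12.5 to 34.5 CPM in Apc-null and 14.3 and 30.1 CPM in WT libraries. Of 8 such markers that passed the filter, 3 rose and 2 fell in Sec-Cre and 4 rose and 2 fell in ISC-Cre organoids. Over all genes 33% and 37.8% passed in these organoid comparisons. Cdh5 was at 15.7 and 7.30 CPM in Sec-Cre and 23.1 and 10.5 CPM in ISC-Cre organoids and had no count in WT organoids, whereas Lyve1, at most 1.58 CPM in Apc-null organoids, was at 26.3 and 10.2 CPM in WT organoids. Immune cell markers summed to 17.6, 22.8 and 26.2 CPM in duodenal ISCs and 72.4 and 65.3 CPM in WT ileal ISCs. Of 9 such markers that passed the filter, 1 rose and 2 fell, beside 19.1% of all genes passing. Itgam made up 55.1 and 36.4 CPM of the WT sums and was at most 1.00 CPM in duodenal ISCs. Cd68 went the other way, at 12.2, 15.3 and 20.3 CPM in duodenal ISCs and 3.96 and 2.48 CPM in WT ileal ISCs. The part of these cells in the annexin differences was not tested.

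**Figure D3:**
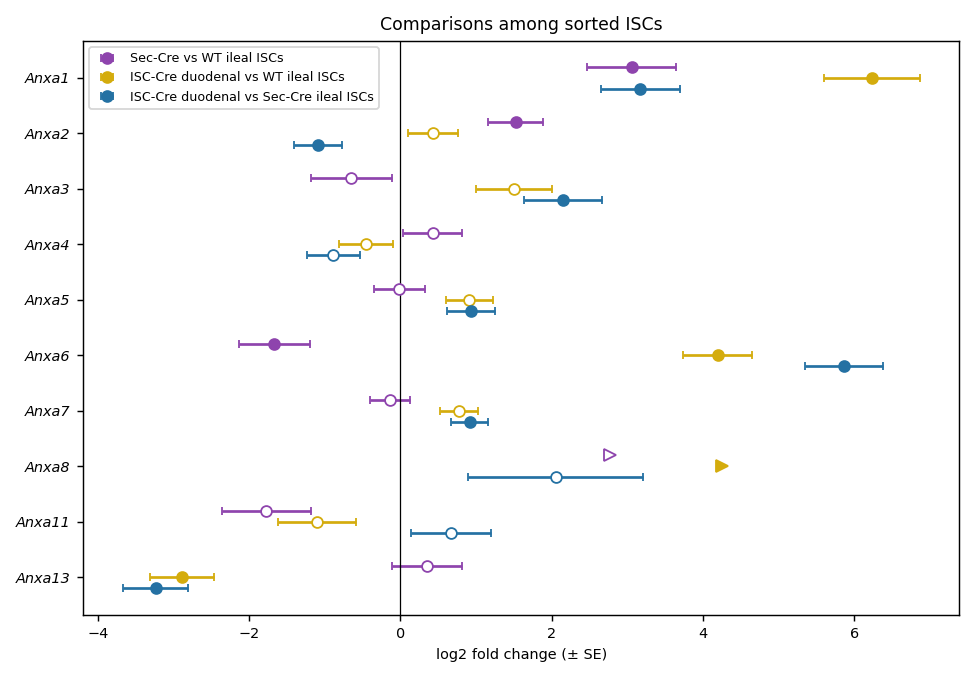
Log2 fold change (± SE) of each annexin in the 3 comparisons among sorted ISCs, with 2 or 3 libraries a group; filled points have an edgeR adjusted p under 0.05 and right-pointing triangles give the log2 lower bound for Anxa8. Anxa1 and Anxa6 are far higher in duodenal ISCs than in both ileal groups, and Anxa13 is lower; between Sec-Cre and WT ileal ISCs, Anxa1, Anxa2 and Anxa6 have filled points.

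WT organoids and WT ileal ISCs were compared as whole cultures against sorted cells, without Apc loss. They also differed in genotype label and in time (10 against 21 days), which cannot be told apart from culture and sorting. Anxa1 was at 3.87 and 5.64 CPM in WT organoids and 0.248 and 1.11 CPM in WT ileal ISCs, a difference of 2.75 ± 0.45 (edgeR adjusted p = 0.00590). It passed without any 1 library (2.10 to 4.24) but not when only the 2 compared groups were fitted (2.74, edgeR adjusted p = 0.106, with 3.33e-08 to 0.106 over the 20 alternatives). Anxa3 differed by 2.09 ± 0.44 (edgeR adjusted p = 0.0207), and did not pass without WT organoid replicate 1 (1.35) or without WT ISC replicate 1 (1.96) or 2 (2.23). These 2 were the only members called, in a comparison where 3.87% of 15208 genes passed (1.98% higher, 1.89% lower), and both were higher in organoids. Levels of 6 members did not overlap, all higher in organoids, against 53.3% of all genes. Anxa8 had no count on either side. The other 7 differences ran between -0.10 ± 0.41 for Anxa6 and 0.98 ± 0.31 for Anxa4. Without Sec-Cre ileal ISC replicate 1 (0.96) or 2 (0.97) in the fit, Anxa4 also passed.

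The make-up of the family was compared per length. On the scale of CPM per kilobase of exon, the 10 members summed to 687 ± 61.8 in Sec-Cre organoids, 679 ± 40.1 in ISC-Cre organoids and 750.4 ± 86.4 in WT organoids (SD, n = 2 each). In ISCs the sum was 400.0 ± 18.1 in duodenal ISCs (n = 3), 660.1 ± 181 in Sec-Cre ileal ISCs and 446 ± 18.1 in WT ileal ISCs (n = 2 each). Anxa4 was the most abundant member per length in 5 groups and shared the lead with Anxa2 in Sec-Cre ileal ISCs, where the 2 overlapped. Anxa2 and then Anxa1 followed in Apc-null organoids, overlapping each other in ISC-Cre ones. Anxa13 and Anxa2 followed in WT organoids and WT ileal ISCs, again overlapping, and Anxa2 followed alone in duodenal ISCs. Anxa1 made up 17.7% of the family in Sec-Cre and 19.8% in ISC-Cre organoids, against 0.222% in WT organoids. Anxa13 made up 1.70% and 1.51%, against 21.1% in WT organoids. Anxa4 made up 25.8% and 23.9%, against 47.2% in WT organoids. In duodenal ISCs Anxa1 held 4.58% and Anxa13 3.05%, while Sec-Cre ileal ISCs, at 0.300% and 19.1%, were nearer to WT ileal ISCs, at 0.0515% and 20.6%.

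**Figure D4:**
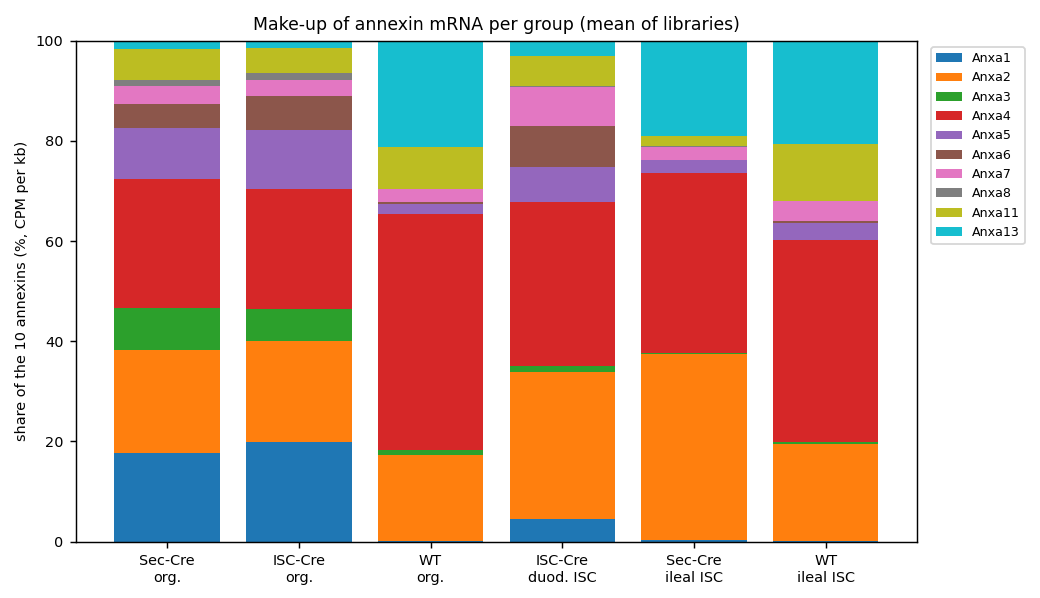
Share of each annexin in the summed CPM per kilobase of the 10 members, in percent, as the mean of the libraries of each group. Anxa13 holds 21.1% in WT organoids and 1.70% and 1.51% in Sec-Cre and ISC-Cre organoids, where Anxa1 holds 17.7% and 19.8%.

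The S100 proteins that bind annexin tails were followed beside them. Of 10 measured S100 genes, 5 rose and 1 fell in each kind of Apc-null organoid against WT, with medians of 0.71 and 0.72. Over all genes 33% and 37.8% passed (16.7% and 19.3% higher), with medians of 0.05 and 0.03. S100a11, the partner of annexin A1, was at 442 and 424 CPM in Sec-Cre organoids, 421 and 451 CPM in ISC-Cre organoids, and 87.3 and 72.6 CPM in WT organoids, so the rise of Anxa1 was accompanied by its partner. S100a6, another annexin binder, was at 868 and 542 CPM, 996 and 553 CPM, and 57.9 and 54.6 CPM in the same 3 groups. S100a11 rose by 2.39 ± 0.14 and 2.41 ± 0.14 (edgeR adjusted p = 5.03e-05 and 4.29e-05), S100a6 by 3.60 ± 0.35 and 3.76 ± 0.35 (edgeR adjusted p = 0.000352 and 0.000255). S100g, a calcium-binding protein of enterocytes, fell. In duodenal ISCs S100a6 was at 855, 1077 and 415 CPM and S100a11 at 143, 164 and 479 CPM, against 32.9 and 30.2 CPM and 51.9 and 63.9 CPM in WT ileal ISCs. They rose by 4.64 ± 0.50 and 2.17 ± 0.62 (edgeR adjusted p = 0.000830 and 0.0417). The S100a11 call was lost without duodenal replicate 2 (2.42) or 3 (1.42), or WT replicate 1 (2.04) or 2 (2.35). In the plot of partners, S100a10 is the one that does not separate Apc-null from WT organoids.

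**Figure D5:**
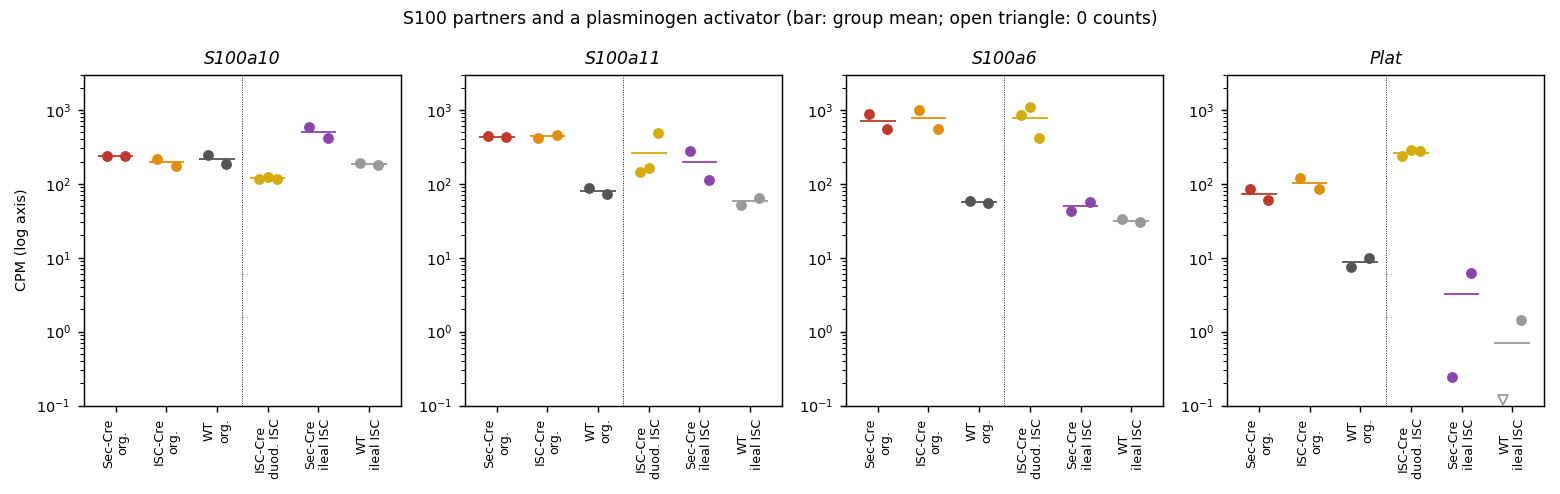
CPM of S100a10, S100a11, S100a6 and Plat in each library on a log axis, Apc-null groups left of WT, with bars at group means and an open triangle for 0 counts. S100a11, S100a6 and Plat are higher in all 4 Apc-null organoid libraries than in both WT ones, and S100a10 overlaps.

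Genes outside the family whose levels ran most like 3 of its members over the 13 libraries were named by Pearson's r of log2(CPM + 1), among 9449 genes. The libraries fall into 6 groups, so r describes this set of samples and is given without a p. For Anxa1 they were Rdh10 (r = 0.988), Msln (0.980), Fn1 (0.978), Myh10 (0.970) and Ahr (0.970). For Anxa8 they were Msln (0.954), Agrn (0.948), Trim16 (0.946), Celf2 (0.942) and Prkch (0.936), so Msln stood in both sets. For Anxa13 they were Hsd17b2 (0.987), Naip5 (0.966), A1cf (0.964), Steap3 (0.963) and Cyp4f40 (0.963).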

How the data were processed

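RNA was measured by RNA-seq in the 13 libraries. The deposited values are whole-number read counts per gene, made by the authors with STAR on mm10 and with DESeq2 1.22.2 named for later steps, per the submitters' processing notes; the column that ignores strand was used. The 4 summary lines per table were left out of library sizes; they held 22.3% to 84.5% of reads.

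Genes were tested with edgeR 4.0.16 (R 4.3.3): filterByExpr with a minimum count of 10, TMM scaling, quasi-likelihood F test, Benjamini-Hochberg adjustment over all genes tested, and a threshold of 0.05. Organoid comparisons were fitted on 6 libraries (14208 genes), ISC comparisons on 7 (14577) and those across both on 13 (15208). SE is the log2 fold change divided by the square root of F. Levels are CPM on TMM-scaled library sizes over all 13 libraries, with exon lengths from GENCODE vM21, which matched 94.6% of symbols. With CPM on plain library sizes, 25 group means of the annexins moved by more than the SD of their group and 35 did not. A fold against a group without counts was computed against 3 counts over that group. Floors and lower bounds of folds cover counting error only, whereas SE and SD include the spread between libraries. Depth was 11524335 to 45516228 counts.

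Genes named beside the annexins were, per list, at most the 4 with the smallest adjusted p, plus S100a10 and S100a11. The annexins and the gene lists were chosen with earlier results of these data known. Alternatives were DESeq2 1.42.0, RLE scaling, no low-count filter, limma 3.58.1 voom with sample weights, a replicate block, other sets of libraries, other library sizes and leaving out each library. The fits were tested on simulated data. Anxa2, Anxa4 and Anxa11 overlap antisense genes, which counts without strand cannot tell apart. In the duodenal libraries, which kept strand, at least 99.1% of the counts of each of these members lay on the second strand.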

Additional observations from a re-analysis of the deposited data

Results flagged for a closer look

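The effect of Sec-Cre on 7 annexins differed between organoids and ileal ISCs by the interaction term of the edgeR fit over all 13 libraries, in which 26.4% of 15208 genes passed. The difference of the log2 effects, organoids minus ileal ISCs, was 3.12 ± 0.61 for Anxa1 (edgeR adjusted p = 0.00318), 3.54 ± 0.63 for Anxa3 (0.00164), 2.20 ± 0.37 for Anxa5 (0.00116) and 5.95 ± 0.63 for Anxa6 (5.61e-05). It was -1.39 ± 0.41 for Anxa2 (0.0253), -1.43 ± 0.44 for Anxa4 (0.0321) and -4.13 ± 0.57 for Anxa13 (0.000324). Anxa6, for one, was higher in Sec-Cre than in WT organoids and lower in Sec-Cre than in WT ileal ISCs. Organoids and ileal ISCs also differed in genotype and time, which cannot be told apart from culture and sorting. The ileal side rests on the libraries labelled Sec-Cre, with unmapped shares of 57.0% and 35.8%, low Axin2 and high enterocyte markers, whose part was not tested. All 7 passed without either Sec-Cre ileal ISC library. With replicate 1 or 2 of these left out, the values were 2.93 or 3.41 for Anxa1, -1.77 or -1.002 for Anxa2, 3.18 or 4.38 for Anxa3, -1.82 or -1.002 for Anxa4, 2.47 or 1.84 for Anxa5, 5.66 or 7.06 for Anxa6, and -3.85 or -4.47 for Anxa13. The value of 7.06 for Anxa6 rested on 3 counts in Sec-Cre ileal ISC replicate 1. Anxa11 passed as well (2.72) without replicate 2.

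Some of these calls were lost when another library was left out. Anxa1 was lost without WT ileal ISC replicate 2 (1.65). Anxa2 was lost without Sec-Cre organoid replicate 1 (-1.53) or 2 (-1.24), WT ileal ISC replicate 1 (-1.46) or 2 (-1.31), or WT organoid replicate 1 (-1.17). Anxa4 was lost without either ISC-Cre organoid library (-1.42 each), Sec-Cre organoid replicate 1 (-1.51) or 2 (-1.33), WT ileal ISC replicate 1 (-1.27) or 2 (-1.58), or WT organoid replicate 1 (-1.32) or 2 (-1.51). Anxa3, Anxa5, Anxa6 and Anxa13 passed without any 1 library.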

How the results depend on the processing

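With 1 library left out, the number of annexins called ran from 7 to 8 in Sec-Cre and stayed at 8 in ISC-Cre against WT organoids, was 0 between the Apc-null organoids, and ran from 0 to 4 (Sec-Cre against WT ileal ISCs), 3 to 8 (duodenal against WT ileal ISCs), 3 to 8 (duodenal against Sec-Cre ileal ISCs), 1 to 3 (WT organoids against WT ileal ISCs) and 4 to 8 (interaction). Over all genes these counts ran from 2608 to 5101, 3194 to 5542, 0 to 9, 153 to 3183, 937 to 3962, 4091 to 5909, 162 to 1001 and 2513 to 4929 in the same order. Annexins called in Sec-Cre against WT ileal ISCs were 0 with the compared groups only (9 tested) and 5 with all 13 libraries, against 3. Duodenal against WT ileal ISCs they were 7 with DESeq2, 10 with sample weights, 8 with the compared groups only and 7 with all 13 libraries, against 4. Duodenal against Sec-Cre ileal ISCs they were 4 with the compared groups only, against 7, and between WT organoids and WT ileal ISCs 4 with sample weights, against 2. With all 13 libraries 7 annexins were called in each Apc-null against WT organoid comparison, Anxa11 being lost. Over all genes, with all 13 libraries Sec-Cre against WT organoids called 2477 (4684) and ISC-Cre against WT organoids 2997 (5377). Sec-Cre against ISC-Cre organoids called 72 with DESeq2, 24 without the filter, 12 with weights, 11 with the compared groups only and 1 with all 13 libraries (6). Sec-Cre against WT ileal ISCs called 3790 with DESeq2, 1336 with the compared groups only and 4291 with all 13 (2417). Duodenal against WT ileal ISCs called 7375 with weights, 1671 with the replicate block and 4426 with all 13 (2783). WT organoids against WT ileal ISCs called 1194 with DESeq2, 1409 with weights and 1026 with the compared groups only (589). The causes were not tested. The sign turned for Anxa5 in Sec-Cre against WT ileal ISCs (-0.02, against 0.031 with DESeq2 and 0.037 with RLE scaling). With 1 library left out it turned for Anxa2 (-0.10 to 0.31) in Sec-Cre and Anxa2 (-0.13 to 0.28) and Anxa7 (-0.00087 to 0.074) in ISC-Cre against WT organoids. Between Apc-null organoids it turned for Anxa1 (-0.32 to 0.0030), Anxa2 (-0.13 to 0.16), Anxa4 (-0.030 to 0.27) and Anxa8 (-0.89 to 0.27). In Sec-Cre against WT ileal ISCs it turned for Anxa4 (-0.076 to 0.78, against 0.43 in the main fit) and Anxa5 (-0.34 to 0.25). Between duodenal and Sec-Cre ileal ISCs it turned for Anxa11 (-0.031 to 2.27, against 0.67 in the main fit). For WT organoids against WT ileal ISCs it turned for Anxa5 (-0.11 to 0.20), Anxa6 (-0.47 to 0.18) and Anxa7 (-0.0064 to 0.21). Deviations of same-numbered libraries from their group means had correlations of -0.078 to 0.067. In groups of 2 libraries the 2 deviations mirror each other, so these values cannot exclude a pairing by number. With the replicate block 8, 8, 0, 3, 3, 6, 2 and 7 annexins were called. Under the alternatives other than leaving out 1 library, 539 values kept direction and side of the threshold. Of the rest, 14 no longer passed, 27 newly passed and 2 turned sign. With 1 library left out, 558 values kept both, 47 no longer passed, 15 newly passed and 17 turned sign.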
